A study of Mus musculus with 12 samples.

Results

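Liver RNA of mice that lack the ghrelin receptor was compared 6 h after an injection of saline or of unacylated ghrelin (UAG). The comparison holds the 4 liver arrays of a series of 12, 2 from saline mice and 2 from UAG mice, chosen by their titles alone, and every one of the 45037 probe sets of the array that is not an Affymetrix control. The mice were females of a congenic C57BL/6 line without Ghsr, the gene of the receptor, and were 12 weeks old. They received saline or UAG at 20 nmol/kg intraperitoneally in the morning part of the light phase, with chow and water at hand. Saline and UAG mice share the deletion, no wild-type liver was on the arrays, and the labels tie no array to a single mouse, so a p-value here measures only the spread between these samples. The liver is a whole organ sample: a lower level of a transcript may mean fewer cells of the type that makes it or less RNA in each, and the arrays cannot tell these apart.

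Ghrelin is a stomach peptide that stimulates growth hormone release and appetite through its receptor once a fatty acid has been attached to it. UAG is the same peptide without the fatty acid. It is the main circulating form, does not activate that receptor at the levels found in blood, and has been studied for effects on insulin sensitivity. The liver releases and stores glucose, makes lipoproteins, bile acids and most plasma proteins, and answers within hours to insulin, glucagon, glucocorticoids, growth hormone, cytokines and the light-dark cycle. The question addressed was which liver transcripts differ shortly after UAG when the known receptor is absent.

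A value is the deposited log2 intensity of a probe set, returned here to intensity. Arrays are given in the order replicate 1, replicate 2. The study's methods name an intensity threshold of 30 and a ratio of means of 2 or 0.5, without saying how values under the threshold were handled. Here values under 30 were set to 30 for means, ratios and log2 differences, and a probe set or gene was called 2-fold higher or lower where the UAG mean was at least 2 times or at most 0.5 times the saline mean. With no floor and dim probe sets left out by their mean, the counts given next as 107 and 87 were 305 and 297. That rule has no p-value, so the text says besides whether the groups were apart, meaning that both UAG arrays lay above, or both below, both saline arrays. Log2 differences are UAG minus saline. A gene's level is that of its brightest probe set over the liver arrays, 12004 genes had a mean of at least 30, and the single intensities quoted are as deposited. Intensities of different genes come from different probes and are not compared with each other.

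The 4 arrays were much alike. Between any pair of them the correlation across probe sets was 0.925 to 0.946, and saline replicate 1 had the lowest of these with UAG replicate 2. On each array 56.2 to 56.3% of probe sets reached 30. The brightest end of UAG replicate 2 was stretched: its 50th brightest value was 13.84 on the log2 scale, against 13.46 to 13.48 on the other arrays, while the medians lay at 5.32. Genes with a mean above 3000 had a median log2 difference of 0.107, and of 0.0075 once the 4 arrays were quantile-normalized, so lists of very abundant transcripts are given on both scales. The ratio of the 3′ to the 5′ probe set of Actb, which grows as RNA degrades, was 1.70 and 1.78 with saline and 1.94 and 2.35 with UAG. The same ratio for Gapdh was 0.714 and 0.668 with saline and 0.723 and 0.695 with UAG, where the groups overlap. The part of RNA quality in the differences was not tested. Alb, the albumin of hepatocytes, was at 12009.8 and 12638 with saline and 10618 and 15547 with UAG. The Y-linked genes Kdm5d, Eif2s3y and Uty were under 30 on all 4 arrays, and the labels give the mice as female. The single probe set of Ghsr was also under 30 on all 4 arrays, which checks nothing where no wild-type liver is at hand.

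By the ratio of means, 107 probe sets were 2-fold higher on the UAG arrays, 0.238% of all, and 87 were 2-fold lower, 0.193%. Of these, 99 and 75 had groups apart. Most were dim: 70 of the higher and 53 of the lower had at least 1 array under 30. limma, an empirical Bayes linear model, called 1 of 25160 probe sets at a Benjamini-Hochberg adjusted p under 0.05, or 0.00397%. Unlike the ratios, limma was fitted to the deposited values without the floor, so its p-values for dim genes can rest on values under 30. At an unadjusted p under 0.05 it had 469 higher and 416 lower. Together these 885 are a smaller share of the 25160 than the 0.05 that such a threshold passes on average where nothing differs. Counted by gene, 38 were 2-fold higher with groups apart, 0.317% of the 12004 measured, and 28 were 2-fold lower, 0.233%. These shares are the background for every list below, together with the shares of genes at an unadjusted limma p under 0.05, 1.9% higher and 1.42% lower, and of genes with groups apart, 15.4% higher and 14.4% lower. With no effect, 2 against 2 arrays are apart in either direction with a probability of 0.333 by order alone. The median log2 difference of all measured genes was 0.0069, with 6180 genes positive and 5824 negative. Sign counts of the lists below are on the deposited scale, where the brightest genes leaned positive, as described above. For lists of abundant transcripts all measured genes are therefore not a like comparison.

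The probe set called by limma, 1455869_at, has no gene name in the annotation used. It was at 357 and 586 on the saline arrays and 2797 and 2938 on the UAG arrays, a ratio of 6.08 and a log2 difference of 2.65 with a standard error of 0.21 (limma adjusted p = 0.0185). Both UAG arrays lay far above both saline arrays. The call was lost among probe sets of a mean of at least 100 (limma adjusted p = 0.0684), without the intensity trend (0.9996) and in a fit to the 12 arrays of the series (0.233). In gonadal white adipose tissue (WAT) of the same series it was at 27.2 and 19.6 on saline and 59.0 and 89.5 on UAG arrays. In muscle it was at 35.8 and 175 on saline and 112 and 154 on UAG arrays, where the groups overlap. The next lowest adjusted p, 0.127, was shared by the genes Erdr1 and Tmem267, both lower, and by 1431213_a_at, a further probe set with no name, at 1396 and 1039 with saline and 3248 and 2855 with UAG. At 0.220 followed Noct and Nup62, both higher, Arrdc3 and Depp1, both lower, and 3 probe sets with no name. One of these, 1427820_at, was at 702 and 470 on the saline arrays and 155 and 68.5 on the UAG arrays. It was lower in WAT too, at 749.5 and 702 against 101 and 139.7, and in muscle, at 417 and 425 against 110.2 and 110.5.

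The brightest gene past 2-fold was Mt2, a metallothionein. Metallothioneins are small cysteine-rich proteins that bind zinc and copper, and their genes answer to zinc, through the factor MTF1, and to glucocorticoids and cytokines. Mt2 was at 1310.4 and 2129 with saline and 5281 and 3648 with UAG, with means of 1719.6 ± 579 and 4464 ± 1155 (SD, n = 2), a ratio of 2.60 and a log2 difference of 1.39 with a standard error of 0.24 (limma adjusted p = 0.505). The groups were apart, and UAG replicate 1 was the highest array. Its neighbour Mt1 was at 4701 and 6407 with saline and 9657 and 10548 with UAG by its brightest probe set, a log2 difference of 0.88 with a standard error of 0.17 (limma adjusted p = 0.771), again with groups apart. The other probe set of Mt1 went the opposite way, at 185 and 305 with saline and 97.4 and 131 with UAG, so the direction for Mt1 rests on the brighter one, whose name marks it as able to bind more than 1 transcript. Of the 11 measured metallothioneins and zinc transporters, 3 were higher and 1 lower at an unadjusted p under 0.05, and the list's median log2 difference was 0.028. The third higher one was Slc39a14, an importer of zinc and iron that inflammation induces, at 938 and 904 with saline and 1391 and 1158 with UAG. The lower one was Slc30a10, an exporter of manganese, at 231 and 157 with saline and 139 and 109 with UAG. Mtf1 itself was at 193 and 107 with saline and 193 and 182 with UAG, and its groups overlap.

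The 250 bases before the starts of Mt1 and Mt2 are shown because the genes are neighbours and both were higher with groups apart. Sequences are from RefSeq on GRCm38.p6, both genes on the plus strand of chromosome 8. Capitals mark the core of the metal response element, TGCNCNC, on either strand. Mt2 lies at chr8:94172368-94172617 and Mt1 at chr8:94178839-94179088.
Mt2: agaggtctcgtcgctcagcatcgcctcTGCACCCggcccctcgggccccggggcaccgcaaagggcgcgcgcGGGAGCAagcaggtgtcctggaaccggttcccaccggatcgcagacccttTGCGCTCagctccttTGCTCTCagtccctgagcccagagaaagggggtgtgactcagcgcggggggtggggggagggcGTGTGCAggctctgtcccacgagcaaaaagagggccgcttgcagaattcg
Mt1: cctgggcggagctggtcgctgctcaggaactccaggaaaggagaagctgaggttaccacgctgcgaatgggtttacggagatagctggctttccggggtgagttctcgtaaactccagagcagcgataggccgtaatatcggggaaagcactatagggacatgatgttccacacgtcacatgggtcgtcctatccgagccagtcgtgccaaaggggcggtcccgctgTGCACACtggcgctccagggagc
The Mt2 window holds 5 matches and the Mt1 window 1. Of all 32817 windows of that length in the table, 44.4% hold at least 1 match and 0.344% hold 5 or more. The windows end at the annotated starts and the bases after these were not searched, so the counts do not compare the whole promoters of the genes. A match describes the letters and is not a site shown to be used.

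Of the 38 genes that were 2-fold higher with groups apart, 5 had all 4 arrays at 100 or more. Besides Mt2 these were Noct, Nup62, Ctse and Saa3. Noct, nocturnin, removes a phosphate from NADP cofactors and is among the most rhythmic liver genes. It was at 454 and 505 with saline and 881 and 1188 with UAG, with means of 479.8 ± 36.1 and 1034 ± 217 (SD, n = 2), a log2 difference of 1.09 with a standard error of 0.16 (limma adjusted p = 0.220). Nup62, a protein of the nuclear pore, was at 317 and 248 with saline and 562 and 642 with UAG, with means of 283 ± 48.4 and 602 ± 56.6 (SD, n = 2), a log2 difference of 1.10 with a standard error of 0.16 (limma adjusted p = 0.220). The UAG arrays of both genes lay well above the saline arrays, close to each other for Nup62 and farther apart for Noct. Ctse, the aspartic protease cathepsin E, was at 159 and 139 with saline and 374 and 222 with UAG, with UAG replicate 1 the highest. Hao2, which oxidises 2-hydroxy acids in peroxisomes, was at 80.3 and 183 with saline and 237 and 349.5 with UAG, with means of 132 ± 72.4 and 293 ± 79.5 (SD, n = 2), a log2 difference of 1.25 with a standard error of 0.36 (limma adjusted p = 0.9997). Its groups were apart, but by less than the arrays of either group differed among themselves.

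The remaining higher genes were dimmer. Sybu, syntabulin, which links cargo to kinesin motors, had the largest log2 difference, 1.57, at 56.9 and 31.3 with saline and 119.6 and 131 with UAG. Adcy5, an adenylyl cyclase that makes cyclic AMP, was at 45.0 and 17.7 with saline and 83.6 and 130.4 with UAG. A second Adcy5 probe set, at 39.6 and 40.4 with saline and 59.5 and 43.3 with UAG, had a log2 difference of 0.34. Cebpd, a C/EBP factor that glucocorticoids and cytokines induce, was at 64.7 and 166 with saline and 219.7 and 301 with UAG. Its other probe set was at 40.0 and 67.4 with saline and 50.4 and 20.0 with UAG, so the dim probe set overlapped and did not share the direction. Plin4, a lipid droplet coat protein, was at 64.2 and 33.2 with saline and 121 and 79.8 with UAG. Rab31, a small GTPase of vesicle transport, was at 53.5 and 85.8 with saline and 145 and 142 with UAG, with UAG arrays that nearly met. The semaphorins Sema3f and Sema6b and the plexin Plxnb3, which also guide axons, were among the 20 largest. Sema3f was at 42.5 and 68.9 with saline and 107 and 138 with UAG, and a second Sema3f probe set overlapped between groups. Sema6b was at 15.98 and 29.6 with saline and 63.3 and 79.5 with UAG. The chemokines Ccl4 and Ccl8 attract monocytes and lymphocytes. Ccl4 was at 21.7 and 29.2 with saline and 77.9 and 76.9 with UAG. Ccl8 was at 32.9 and 16.02 with saline and 53.2 and 121 with UAG, with UAG replicate 2 the highest. For 9 of the 38 higher genes, Ccl4 included, both saline arrays were under 30, so their ratios depend on the floor. Of 13 higher genes with a further probe set at 30 or more, 8 had all of them in the same direction.

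**Figure D1:**
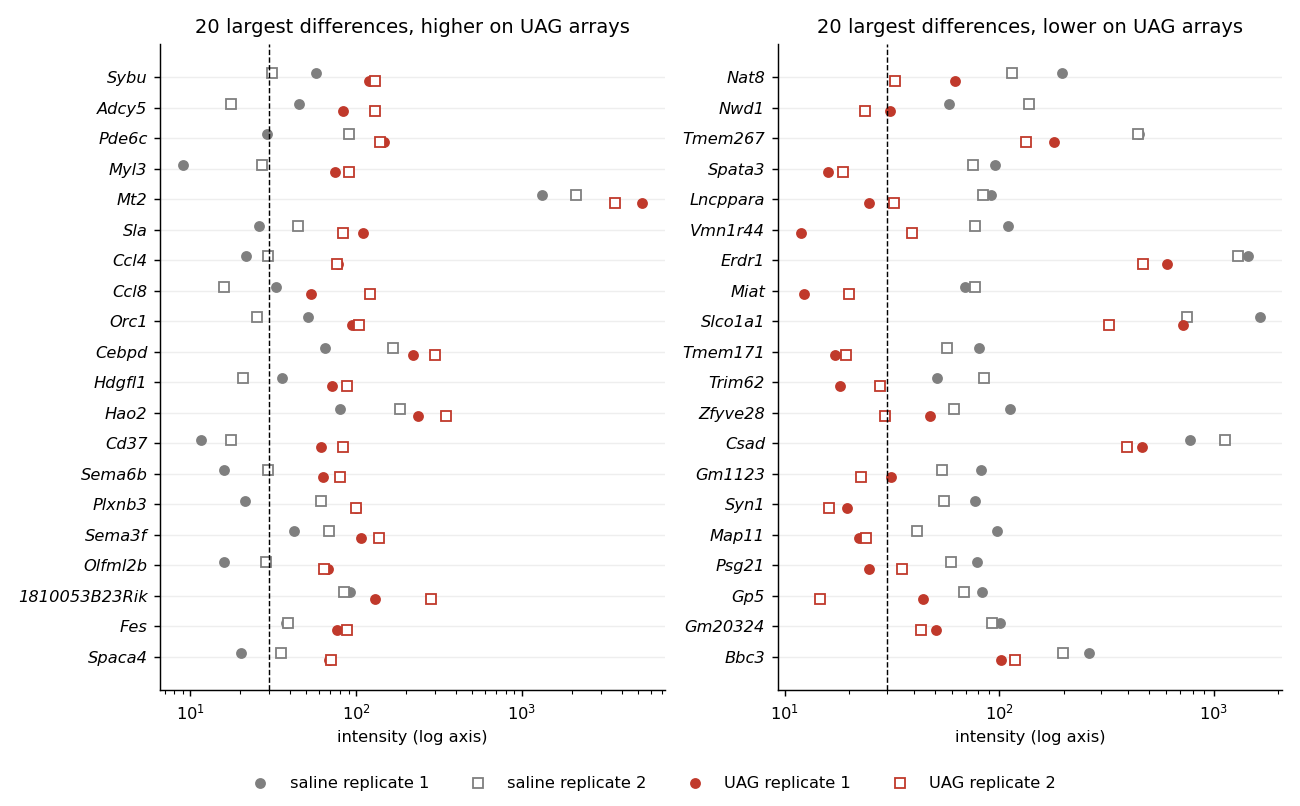
Intensity (log axis) on each of the 4 liver arrays for the 20 genes with the largest positive (left) and negative (right) log2 difference among those 2-fold with groups apart. Grey symbols are saline and red symbols UAG, circles replicate 1 and open squares replicate 2, and the dashed line is the floor of 30; in every row the grey and red symbols do not overlap, and most rows lie below 200.

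Of the 28 genes that were 2-fold lower with groups apart, 5 had all 4 arrays at 100 or more: Tmem267, Erdr1, Slco1a1, Csad and Bbc3. Tmem267, a transmembrane protein of unsettled function, was at 451 and 442 with saline and 180.1 and 134 with UAG, with means of 447 ± 6.09 and 157 ± 32.6 (SD, n = 2), a log2 difference of -1.52 with a standard error of 0.18 (limma adjusted p = 0.127). Erdr1, named as a regulator of erythroid differentiation, was at 1443 and 1299 with saline and 605 and 467 with UAG. Its means were 1371 ± 102 and 536 ± 98.1 (SD, n = 2), a log2 difference of -1.36 with a standard error of 0.15 (limma adjusted p = 0.127). For both, each pair of arrays lay close together on these probe sets and the gap between groups was wide. A dim second Erdr1 probe set overlapped between groups, at 27.9 and 79.0 with saline and 27.2 and 64.3 with UAG. Csad, cysteine sulfinic acid decarboxylase, the enzyme that commits cysteine to taurine, was at 778 and 1133 with saline and 464 and 393 with UAG, with means of 956 ± 250.5 and 429 ± 50.5 (SD, n = 2), a log2 difference of -1.14 with a standard error of 0.18 (limma adjusted p = 0.401). Bbc3, the cell death protein PUMA, was at 262 and 198 with saline and 102 and 119 with UAG (limma adjusted p = 0.771).

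Slco1a1, which carries bile acids and steroid conjugates into hepatocytes and is higher in male mouse liver, was at 1638 and 749.7 with saline and 718 and 326 with UAG, with means of 1194 ± 628 and 522 ± 277 (SD, n = 2). Its groups were apart by little, since saline replicate 2 and UAG replicate 1 nearly met. A second probe set was at 1081 and 543 with saline and 441 and 251 with UAG. Nat8, an N-acetyltransferase of cysteine conjugates, had the largest negative log2 difference, -1.73, at 196 and 114 with saline and 62.4 and 32.7 with UAG. Lncppara, a noncoding RNA named after the Ppara locus, was at 92.1 and 83.9 with saline and 24.8 and 32.3 with UAG. Ppara itself, the fatty acid receptor, was at 1294 and 1878 with saline and 1636 and 1268 with UAG, and its groups overlap. Spata3, a testis protein, was at 95.9 and 75.5 with saline and 15.8 and 18.8 with UAG. Miat, a noncoding RNA, was at 69.2 and 77.1 with saline and 12.3 and 19.9 with UAG. Ebi3, a subunit of interleukin heterodimers, was at 75.5 and 56.1 with saline and 35.3 and 18.2 with UAG. These lower genes were dim throughout. Both UAG arrays were under 30 for 7 of the 28. Arrdc3 and Depp1, named after their values were seen for their low adjusted p, did not reach 2-fold. Arrdc3, an arrestin-domain protein of fasted tissues, was at 1229 and 1216 with saline and 716 and 644 with UAG, a log2 difference of -0.85 with a standard error of 0.12. Depp1, a target of FOXO factors, was at 1288 and 1189 with saline and 721 and 616 with UAG, a log2 difference of -0.89 with a standard error of 0.13.

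Acute-phase proteins are plasma proteins that hepatocytes make more of when interleukin 6, interleukin 1 or glucocorticoids reach them. Of 24 measured, 22 had a positive and 2 a negative log2 difference, 7 were higher and 0 lower at an unadjusted limma p under 0.05, and 11 were higher with groups apart. The list's median log2 difference was 0.21, and 0.086 with the 4 arrays quantile-normalized. Many members are bright, with a median of their mean intensities of 2401, and the sign counts are on the deposited scale. None passed limma after adjustment over all probe sets.

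The 5 largest differences were those of Saa3, Lcn2, Saa1, Il6ra and Saa2. Saa1, which inflammation raises steeply, was at 385 and 396 with saline and 983 and 512 with UAG, with means of 391 ± 7.77 and 748 ± 333 (SD, n = 2), a log2 difference of 0.86 with a standard error of 0.26 (limma adjusted p = 0.9997). Saa2, its neighbour and near copy, was at 134 and 133 with saline and 249.9 and 183 with UAG. Saa3, an amyloid A of macrophages and hepatocytes, was at 118 and 153 with saline and 173 and 373 with UAG, a ratio of 2.01. The saline arrays of Saa1 and of Saa2 were nearly equal, and of the UAG arrays replicate 1 was higher for these 2 genes and replicate 2 for Saa3. Saa1 and Saa2 are alike enough that probes may bind both transcripts, so their levels are not independent. Lcn2, lipocalin 2, which withholds iron from bacteria, was at 194 and 159.8 with saline and 328 and 325 with UAG, with means of 177 ± 24.2 and 327 ± 1.74 (SD, n = 2), a log2 difference of 0.89 with a standard error of 0.16 (limma adjusted p = 0.568). Its UAG arrays nearly met and both lay above the saline arrays. Orm3, an orosomucoid, was at 124 and 120.1 with saline and 187 and 179.7 with UAG. Il6ra, the receptor chain that binds interleukin 6, was at 127 and 155 with saline and 216 and 254 with UAG. The other Il6ra probe set went the opposite way by a small amount, at 155 and 153 with saline and 140.005 and 149 with UAG, again with groups apart. Steap4, a metalloreductase that interleukin 6 induces, was at 937 and 802 with saline and 1274 and 973 with UAG.

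The abundant acute-phase proteins differed little. Fga, a fibrinogen chain, was at 13499 and 14349.6 with saline and 14617 and 17949.9 with UAG. Hamp, the iron hormone hepcidin, was at 12140.1 and 11894 with saline and 12318 and 16066 with UAG. Both had their highest level on UAG replicate 2, the array with the stretched upper end. Hp, haptoglobin, was at 8011 and 7808 with saline and 7922 and 9264 with UAG with groups that overlap. The 2 members with a negative log2 difference were Crp and Orm1. Crp was at 5593 and 5065 with saline and 4774 and 5634 with UAG. Orm1 was at 6657 and 5864 with saline and 5902 and 6114 with UAG. Of the cytokines that drive the response in other settings, Il6 and Tnf were under 30 on all 4 arrays. Il1b was at 144 and 73.7 with saline and 92.9 and 119 with UAG, with groups that overlap.

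The sequences before Saa1, Saa2 and Lcn2 are printed because these genes were higher together. They are from RefSeq on GRCm38.p6, with Saa1 (chr7:46742981-46743230, minus strand) and Saa2 (chr7:46751583-46751832, plus strand) on chromosome 7 facing away from each other, and Lcn2 (chr2:32387740-32387989, minus strand) on chromosome 2. Capitals mark TTGCNNAA, a form of the C/EBP motif, on either strand.
Saa1: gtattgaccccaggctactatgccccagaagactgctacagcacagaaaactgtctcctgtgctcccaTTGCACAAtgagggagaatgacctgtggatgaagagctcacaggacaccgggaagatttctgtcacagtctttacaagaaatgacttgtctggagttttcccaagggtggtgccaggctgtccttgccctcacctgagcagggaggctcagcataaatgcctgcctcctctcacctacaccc
Saa2: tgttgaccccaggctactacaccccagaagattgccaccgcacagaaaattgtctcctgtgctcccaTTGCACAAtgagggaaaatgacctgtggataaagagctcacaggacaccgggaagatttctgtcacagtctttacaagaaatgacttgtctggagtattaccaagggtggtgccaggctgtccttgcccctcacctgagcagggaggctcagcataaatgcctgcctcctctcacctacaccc
Lcn2: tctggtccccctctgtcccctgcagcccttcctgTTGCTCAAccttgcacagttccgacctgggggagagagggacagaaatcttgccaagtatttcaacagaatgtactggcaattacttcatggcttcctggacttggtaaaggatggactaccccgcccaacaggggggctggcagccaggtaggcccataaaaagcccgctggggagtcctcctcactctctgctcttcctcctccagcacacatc
Each window holds 1 match, and 9.57% of the 32817 windows hold at least 1. The Saa1 and Saa2 windows share 238 of 250 bases in aligned identical stretches, the longest of 65 bases.

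Glucocorticoids act through the receptor Nr3c1 and raise transcription of a set of liver genes within hours. Of 23 such genes, 19 had a positive log2 difference, 7 were higher and 0 lower at an unadjusted limma p under 0.05, and 2, Mt2 and Cebpd, were 2-fold with groups apart. The median was 0.36, and 0.37 with quantile normalization. It was 0.12 without UAG replicate 2 and 0.79 without UAG replicate 1. Mt1, Mt2, Cebpd, Per1 and Lcn2 are members that other lists hold too. Errfi1, a brake on the EGF receptor, was at 3057 and 8103 with saline and 9798 and 11446 with UAG. Saline replicate 1 was far below the other 3 arrays there, and the UAG arrays were above both saline arrays. Per1, a clock gene that glucocorticoids induce directly, was at 84.3 and 245 with saline and 294 and 259.7 with UAG, with the same low saline replicate 1. Fkbp5, the chaperone that damps the glucocorticoid receptor, was at 477 and 655 with saline and 788 and 989 with UAG, with means of 566 ± 126 and 888 ± 143 (SD, n = 2), a log2 difference of 0.66 with a standard error of 0.18 (limma adjusted p = 0.9997). Tsc22d3, the leucine zipper protein GILZ, was at 916 and 802 with saline and 931 and 1299.7 with UAG with groups apart by little. Sgk1, Dusp1 and Ddit4 overlapped between groups, as did Pck1 and Igfbp1. Pck1, a gluconeogenic enzyme, was at 6767 and 9214 with saline and 9104 and 9549 with UAG. Igfbp1, which binds IGF and follows fasting, was at 505 and 2065 with saline and 541 and 1845 with UAG, high on replicate 2 of each group and low on replicate 1 of each. Nr3c1 was at 671 and 599 with saline and 603 and 556 with UAG.

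**Figure D2:**
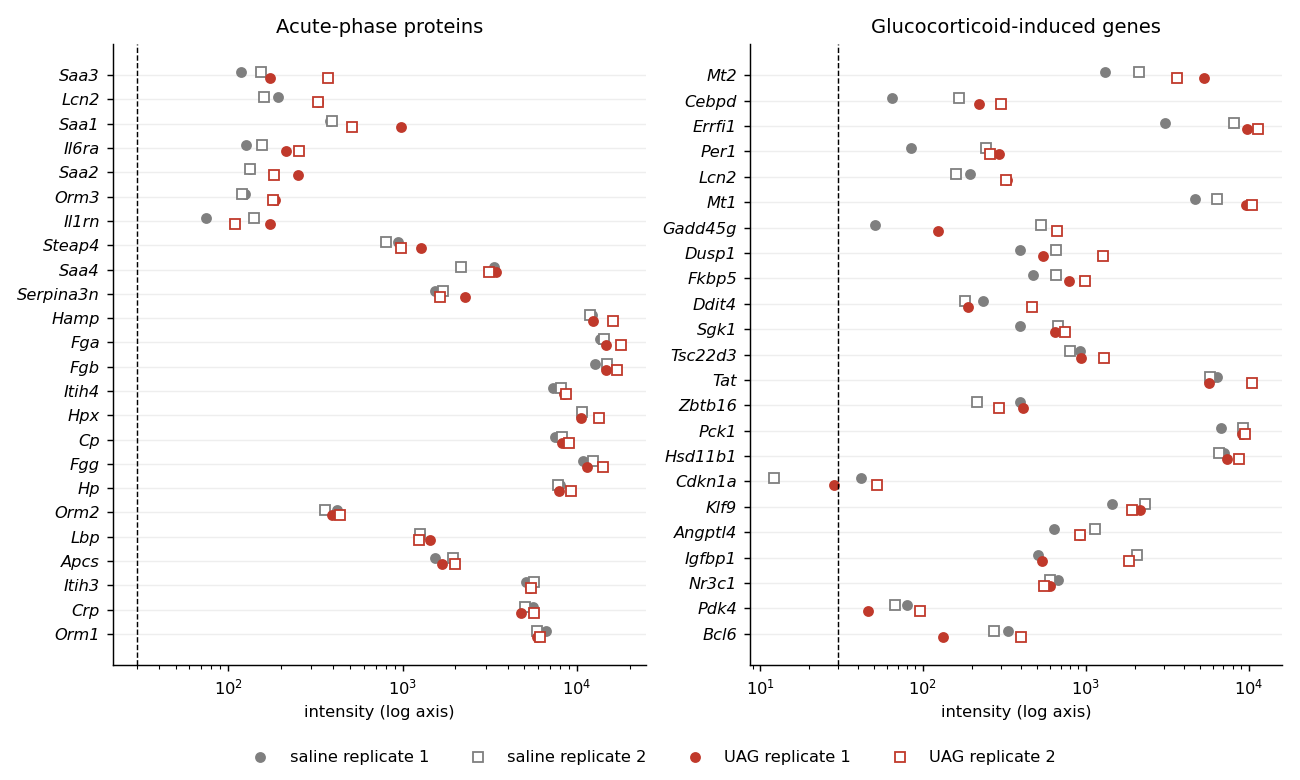
Intensity (log axis) on each of the 4 liver arrays for the 24 measured acute-phase genes (left) and the 23 measured glucocorticoid-induced genes (right), ordered by log2 difference. Grey symbols are saline and red symbols UAG, circles replicate 1 and open squares replicate 2, and the dashed line is the floor of 30; the red symbols lie to the right of the grey for 11 acute-phase and 9 glucocorticoid-induced genes.

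The liver clock is a loop in which Arntl and Clock drive Per and Cry genes, which in turn repress them. Of 16 clock genes, 2 were higher and 1 lower at an unadjusted p under 0.05, with a median log2 difference of 0.055. Cry1, a repressor of the loop, was at 109.7 and 72.7 with saline and 147 and 152 with UAG with groups apart, a log2 difference of 0.74 with a standard error of 0.25. Per3 was at 325 and 359 with saline and 259.6 and 213 with UAG and was the lower one, with a log2 difference of -0.54 with a standard error of 0.16. Its other probe sets overlapped between groups. Arntl was dim, at 34.7 and 34.0 with saline and 46.1 and 61.2 with UAG. Dbp, an output factor, was at 1400.2 and 2213 with saline and 1672 and 1327 with UAG. Per2 was at 369 and 278 with saline and 381 and 353 with UAG. The groups of both overlap. Of 20 immediate-early genes, which respond to stimuli without new protein, 1 was higher at an unadjusted p under 0.05. It was Jun, a subunit of the factor AP-1, at 159 and 90.7 with saline and 182 and 297 with UAG. Egr1 was at 133 and 868 with saline and 919.9 and 279.8 with UAG. Myc was at 44.9 and 228 with saline and 152 and 376 with UAG. Each was spread several-fold within a group.

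Growth hormone acts on the liver through its receptor Ghr and STAT5, and its pattern of release sets the sex difference of mouse liver. Of 16 genes of the axis, 1 was higher at an unadjusted p under 0.05 and 0 lower. Cish, a direct STAT5 target that feeds back on the receptor, was at 203 and 314 with saline and 583 and 416 with UAG, with means of 258 ± 77.9 and 499 ± 118 (SD, n = 2), a log2 difference of 0.96 with a standard error of 0.23 (limma adjusted p = 0.9997). Socs2, another such target, was at 324 and 607 with saline and 667 and 521 with UAG with groups that overlap. Onecut1, the factor HNF6, was at 314 and 78.2 with saline and 471 and 260.4 with UAG, with saline replicate 1 inside the range of the UAG arrays. Ghr was at 4883 and 4395 with saline and 4430.4 and 4764 with UAG. Igf1 was at 5149 and 4897 with saline and 4936 and 5929 with UAG. Their differences lie within the spread of the arrays. Igfbp3, which carries IGF in blood, was at 247 and 227 with saline and 281 and 224 with UAG.

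Genes known to be higher in male liver had a negative log2 difference in 9 of 10, with a median of -0.54. That median rested on 1 array: without saline replicate 1 it was -0.025. Hsd3b5, a steroid dehydrogenase, was at 443 and 15.6 with saline and 24.2 and 4.30 with UAG. Cyp4a12a, a fatty acid hydroxylase, was at 209 and 9.16 with saline and 38.9 and 3.69 with UAG. Saline replicate 1 was the sole array with a clear signal for either gene. Cyp7b1, an oxysterol hydroxylase, was at 1739 and 984 with saline and 668 and 889.6 with UAG with groups apart, and without saline replicate 1 its log2 difference was still negative. Genes higher in female liver had a positive difference in 9 of 11, with a median of 0.25 and of 0.018 without UAG replicate 2. Sult3a1, an amine sulfotransferase, was at 482 and 3319 with saline and 1396 and 3145 with UAG, lowest on saline replicate 1. Sult2a2, a bile acid sulfotransferase named here for its spread, was at 215 and 4604 with saline and 3008 and 7984 with UAG and had the same low array. Cyp3a16 was under 30 on 3 arrays and at 148 on UAG replicate 2. The part of saline replicate 1 in these differences cannot be told apart from the treatment with 2 arrays a group.

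Transcription factors of the liver and of its nuclear receptors set the levels of its metabolic genes. Of 17 liver factors, 4 were higher at an unadjusted p under 0.05 and 0 lower: Cebpd, Cebpb, Foxa1 and Foxa2. Cebpb, the C/EBP of the acute-phase response and of gluconeogenesis, was at 1059.99 and 1642 with saline and 1839 and 1787 with UAG. Foxa1 and Foxa2 are pioneer factors that open liver enhancers. Foxa1 was at 293 and 325 with saline and 455 and 357 with UAG. Foxa2 was at 386 and 333 with saline and 546 and 417 with UAG. The groups were apart for these 3, and UAG replicate 1 was the higher UAG array in each. Cebpa, the factor of mature hepatocytes, was at 2961 and 2458 with saline and 2921 and 2176 with UAG. Of 22 nuclear receptors and partners, 1 was higher at an unadjusted p under 0.05, the xenobiotic receptor Nr1i2 (PXR), at 408 and 456 with saline and 599 and 501 with UAG, and none was lower. Nr1h4, the bile acid receptor FXR, was at 1261 and 1401 with saline and 1294 and 1249 with UAG. Pparg, low in healthy liver, was at 73.6 and 94.2 with saline and 163 and 84.1 with UAG, with 1 UAG array above the rest. Of 12 measured G-protein coupled receptors, 9 had a negative log2 difference and none passed an unadjusted p under 0.05 in either direction. Gpr39, a zinc-sensing relative of the ghrelin receptor, was at 76.5 and 86.8 with saline and 66.7 and 67.7 with UAG. The glucagon receptor Gcgr was at 869 and 821 with saline and 982 and 755 with UAG.

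Insulin signals through Insr, Irs1, Irs2 and Akt, which shuts FOXO factors out of the nucleus. Of 18 genes of that pathway, 1 was higher at an unadjusted p under 0.05 and none lower, and the median log2 difference was 0.024. The higher one was Foxo1 itself, at 318 and 335 with saline and 504 and 378 with UAG. Another Foxo1 probe set, nearly as bright, overlapped between groups, at 380 and 304 with saline and 444 and 362 with UAG. A further one was higher with groups apart, at 303 and 243 with saline and 399 and 346 with UAG. Insr was at 558 and 879 with saline and 728 and 696 with UAG. Irs1 was at 355 and 401 with saline and 293 and 387 with UAG. Irs2 was at 55.8 and 48.4 with saline and 57.4 and 51.3 with UAG. The groups of these 3, and of Akt2, overlap. Gsk3b, the kinase that restrains glycogen synthase, was at 316 and 297 with saline and 232 and 276 with UAG, both UAG arrays below both saline arrays, by its brightest probe set. A second Gsk3b probe set, nearly as bright, was also lower with groups apart, at 329 and 305 with saline and 216 and 260 with UAG. Of its dimmer probe sets 3 went the opposite way with groups apart. The brightest of these was at 148 and 124 with saline and 155 and 175 with UAG, so Gsk3b has no settled direction across its probe sets.

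In glucose metabolism, 1 of 21 genes was higher at an unadjusted p under 0.05. It was Ppp1r3b, which brings a phosphatase to glycogen, at 1482 and 812 with saline and 1575 and 1950.4 with UAG, with saline replicate 2 far below the other arrays. G6pc, which releases free glucose, was at 2159.6 and 2442 with saline and 1856 and 3137 with UAG. Gys2, liver glycogen synthase, was at 1224 and 1935 with saline and 1783 and 1371 with UAG. Both have groups that overlap. Slc2a2, the glucose transporter GLUT2, was at 4838 and 5078 with saline and 5761 and 5532 with UAG, apart by a small margin. Pfkfb3, a driver of glycolysis, was at 99.5 and 111 with saline and 172 and 114 with UAG. The list's median was 0.040.

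Among genes of triglyceride synthesis and lipid droplets, 13 of 17 had a positive log2 difference and 4 were higher at an unadjusted p under 0.05, against 0 lower. They were Plin4, Lpin1, G0s2 and Plin5. Lpin1, a phosphatidate phosphatase that also coactivates PPARα, was at 2201 and 1553 with saline and 3133 and 3321 with UAG, with means of 1877 ± 459 and 3227 ± 133 (SD, n = 2), a log2 difference of 0.80 with a standard error of 0.17 (limma adjusted p = 0.831). Its second probe set was at 1737 and 1049 with saline and 2190 and 2269 with UAG. G0s2, which inhibits the lipase ATGL, was at 801 and 791 with saline and 1594 and 1193 with UAG, with means of 796 ± 7.40 and 1394 ± 284 (SD, n = 2), a log2 difference of 0.79 with a standard error of 0.15 (limma adjusted p = 0.689). Plin5, a droplet coat that ties droplets to mitochondria, was at 482 and 404 with saline and 556 and 706 with UAG. All 4 had groups apart. Plin2, the main droplet coat of hepatocytes, was at 2369 and 3666 with saline and 4028 and 2273 with UAG, with groups that overlap. The acyltransferases Dgat1 and Gpam overlapped too.

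Fatty acid synthesis differed in the other sense by count alone: 10 of 16 genes had a negative log2 difference, none passed an unadjusted p under 0.05, and the median was -0.13, and 0.070 without saline replicate 1. Fasn, fatty acid synthase, was at 2971 and 1509.6 with saline and 1602 and 1561 with UAG. Acly, which makes cytosolic acetyl-CoA, was at 3213 and 1683 with saline and 1923 and 1944 with UAG. Their regulator Srebf1 was at 1972 and 1091 with saline and 1388 and 959.96 with UAG. Saline replicate 1 was the highest array of each. Thrsp, a lipogenic protein, was lowest on saline replicate 2, at 9491 and 3033 with saline and 6881 and 9820.4 with UAG. Of 17 genes of cholesterol synthesis and uptake, 12 had a negative difference and none passed an unadjusted p under 0.05. The median was -0.095, and 0.17 without UAG replicate 1. Hmgcs1, an early enzyme, was at 4238 and 7213 with saline and 3645 and 8450.1 with UAG. Sqle, squalene epoxidase, was at 1202 and 1383 with saline and 928 and 1786 with UAG. Each was lowest on UAG replicate 1 and highest on UAG replicate 2. Insig1, which holds SREBP in the endoplasmic reticulum, was at 1238 and 1319 with saline and 955 and 1165 with UAG.

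Of 22 genes of fatty acid oxidation and ketone synthesis, 18 had a positive log2 difference, with a median of 0.12, or 0.099 with quantile normalization, and none passed an unadjusted p under 0.05. Without saline replicate 1 the median was -0.036. Acadm, the medium-chain dehydrogenase, was at 4296 and 5074 with saline and 5563 and 5957 with UAG with groups apart. Cpt1a, which admits fatty acids to mitochondria, was at 3077 and 3359 with saline and 3644 and 3393 with UAG. Vnn1, a pantetheinase under PPARα, was at 871 and 2137 with saline and 2043 and 1794 with UAG, with saline replicate 1 low. Apolipoproteins had a positive difference in 14 of 16, a median of 0.18 that became 0.022 with quantile normalization. Apoa1, the main protein of HDL, was at 16464 and 18311 with saline and 17366 and 25606 with UAG, its excess on UAG replicate 2 alone.

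Bile acids are made from cholesterol by Cyp7a1 or Cyp27a1 and Cyp7b1 and moved by transporters on both faces of the hepatocyte. Of 23 genes, 1 was higher and 2, Slco1a1 and Cyp7b1, were lower at an unadjusted p under 0.05. Groups were apart and lower in 8 and higher in 1. Cyp7a1, the rate-limiting enzyme of bile acid synthesis, was at 3495 and 2063 with saline and 3478 and 5992 with UAG. It was the higher one, although saline replicate 1 and UAG replicate 1 were nearly equal and its groups overlap. Abcb11, the bile salt export pump, was at 2478 and 1909.7 with saline and 1808 and 1848 with UAG. Nr0b2, the repressor SHP, was at 425 and 431 with saline and 423 and 344 with UAG. Both were lower with groups apart. Slc10a1, which takes bile acids up, was at 7731 and 7319 with saline and 7659 and 10167 with UAG.

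Enzymes of energy metabolism had small and mostly positive log2 differences. Of 24 subunits of oxidative phosphorylation 20 were positive and 4 negative, against 6180 and 5824 over all measured genes. The list is bright, with a median of its members' mean intensities of 3317, and these sign counts are on the deposited scale. There genes with a mean above 3000 had a median log2 difference of 0.107, so all measured genes are not a like comparison. In 6 of the subunits the groups were apart and higher and in 0 apart and lower. Their median was 0.059, or 0.032 after quantile normalization, and none passed an unadjusted p under 0.05. Of 20 genes of the citric acid cycle and pyruvate dehydrogenase, 17 were positive and 3 negative, with a median of 0.059, or 0.060 after quantile normalization. At an unadjusted p under 0.05 1 of them was higher, Suclg2, a succinyl-CoA ligase subunit, at 3368 and 3133 with saline and 4009 and 4339.6 with UAG. The urea cycle and amino acid catabolism had 21 of 27 positive, with a median of 0.14 that was 0.015 after quantile normalization. Cps1, the first enzyme of the cycle, was at 13076 and 11381 with saline and 12465 and 17129 with UAG. Of 18 genes of serine synthesis and the ATF4 response, 1 was higher, Vldlr, a lipoprotein receptor, at 94.3 and 121 with saline and 153 and 231 with UAG, and none lower. Further Vldlr probe sets overlapped between groups. Phgdh, the first enzyme of serine synthesis, was at 111 and 138 with saline and 227 and 148 with UAG, apart by little. Its second probe set went the opposite way by more, at 85.6 and 73.5 with saline and 49.4 and 36.4 with UAG, again with groups apart. Trib3, an ATF4 target, was highest on saline replicate 2, at 98.8 and 205 with saline and 118 and 100.4 with UAG.

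Of 22 genes of the cytochrome P450 list, 1 was higher at an unadjusted p under 0.05. It was Alas1, which starts the synthesis of the heme these enzymes carry, at 8139 and 4785 with saline and 9582 and 10258 with UAG, with means of 6462 ± 2371 and 9919.7 ± 478 (SD, n = 2), a log2 difference of 0.67 with a standard error of 0.23. Its groups were apart, with saline replicate 2 the lowest. Cyp3a11, the major drug-metabolizing P450 of mouse liver, was at 12756 and 12416 with saline and 12182 and 15669.8 with UAG. The list's median was 0.10 and 0.011 after quantile normalization. Of 22 NRF2 targets and glutathione enzymes, 1 was lower, Gclc, the catalytic subunit of the enzyme that limits glutathione synthesis, at 1975 and 1922 with saline and 1597 and 1366 with UAG, a log2 difference of -0.40 with a standard error of 0.12. Cth, which makes the cysteine that glutathione and taurine are built from, was at 8956 and 5817 with saline and 6353 and 9693 with UAG, with groups that overlap. Of 17 sulfo-, glucuronosyl- and acetyltransferases, 1 was higher and 1 lower at an unadjusted p under 0.05. Sult1d1, a sulfotransferase of catecholamines, was at 2825 and 3165 with saline and 3367 and 4526 with UAG.

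Immune and stress genes went several ways. Of 17 NF-kappaB targets, chemokines and cytokines, 3 were higher and 2 lower at an unadjusted p under 0.05. Ccl9, a macrophage chemokine, was at 1372 and 1352 with saline and 1714 and 1938 with UAG. Vcam1, an adhesion protein of activated endothelium, was at 169.7 and 293 with saline and 333 and 321 with UAG. With Ccl4 these were the higher ones. Relb, a subunit of noncanonical NF-kappaB, was lower, at 55.0 and 58.7 with saline and 19.3 and 14.1 with UAG. Cxcl14, a chemokine, was lower too, at 117 and 81.7 with saline and 66.3 and 40.5 with UAG. Nfkbia, the inhibitor that NF-kappaB itself induces, was at 1683 and 2002 with saline and 1566 and 1919 with UAG. Of 21 interferon-stimulated genes, 15 had a negative difference and 1 was lower, Irf1, at 558 and 534 with saline and 444 and 394 with UAG. The median was -0.070, and 0.14 without UAG replicate 2. Of 28 complement and coagulation proteins none passed an unadjusted p under 0.05. F12, coagulation factor XII, was at 2068 and 2268 with saline and 1769.8 and 1854 with UAG.

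Of 22 genes of heat shock and protein folding, 2 were lower at an unadjusted p under 0.05, both of the endoplasmic reticulum. Sdf2l1, a partner of the chaperone BiP, was at 235 and 212 with saline and 139 and 141 with UAG. Pdia6, a disulfide isomerase, was at 1194 and 1176 with saline and 919 and 904 with UAG. For each the arrays of a group nearly met and the groups were apart. Hspa5, BiP itself, was at 4696 and 3827 with saline and 3797 and 4447 with UAG, with groups that overlap. Of 26 genes of Notch, Wnt and TGF-beta signalling, 2 were higher. Id3, a target of bone morphogenetic proteins, was at 469.7 and 412 with saline and 642 and 707 with UAG. Fzd7, a Wnt receptor, was at 148 and 213 with saline and 272 and 271 with UAG. Of 19 cell cycle genes none passed an unadjusted p under 0.05. Ccnd1, a cyclin of entry into the cycle, was at 1133 and 1354 with saline and 1020.4 and 1069 with UAG, lower with groups apart. Among 19 secreted regulators of the liver, Angptl8, an insulin-induced inhibitor of lipoprotein lipase, was at 425 and 225 with saline and 405 and 670.2 with UAG, a log2 difference of 0.75 with a standard error of 0.31, with saline replicate 1 above UAG replicate 1.

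**Figure D3:**
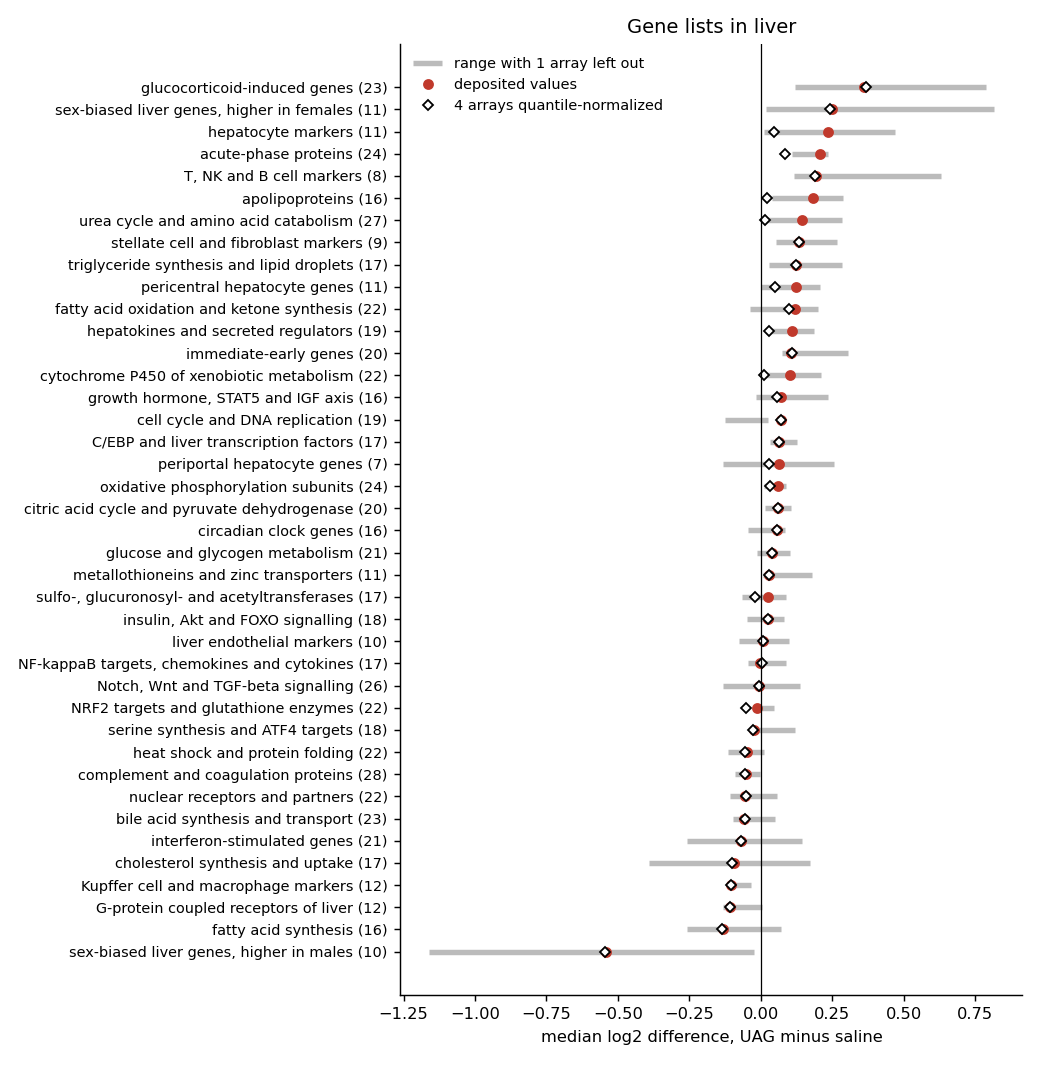
Median log2 difference, UAG minus saline, of each gene list with 5 or more measured members (number in parentheses). Red points use the deposited values, open diamonds the 4 liver arrays quantile-normalized, and grey bars span the medians with 1 array left out; the glucocorticoid-induced list is highest (0.36) and the male-biased list lowest (-0.54), and the hepatocyte, apolipoprotein and urea cycle medians move toward 0 after normalization.

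Hepatocytes differ along the lobule. Of 7 periportal genes the median log2 difference was 0.063, and of 11 pericentral genes 0.12, or 0.029 and 0.049 after quantile normalization. The markers of hepatocytes as a whole were bright and positive in 11 of 11, with a median log2 difference of 0.24, of 0.046 after quantile normalization and of 0.0099 without UAG replicate 2. Their summed intensity was 114980.0 and 118370.0 with saline and 116526 and 159652 with UAG. Markers of Kupffer cells and macrophages summed to 9827 and 9617 with saline and 8991 and 9451 with UAG, and 9 of 12 had a negative difference. Those of liver endothelium summed to 4166 and 4979 with saline and 4678 and 4349 with UAG and those of stellate cells and fibroblasts to 5097 and 6084 with saline and 6241 and 5684 with UAG. Among the latter, Acta2 and Col1a2, of contractile and matrix-forming cells, were higher at an unadjusted p under 0.05. Acta2 was at 166 and 161 with saline and 225 and 205 with UAG. Col1a2 was at 167 and 182 with saline and 222 and 244 with UAG. Its other probe set was dim and overlapped between groups, at 20.2 and 54.6 with saline and 21.0 and 56.7 with UAG. Col1a1 had a mean under 30. Lymphocyte markers were dim, with a sum of 393 and 319.9 with saline and 493 and 461 with UAG. Of 8 measured, 6 had a positive and 2 a negative log2 difference, and Cd3e and Cd8a of T cells were higher at an unadjusted p under 0.05. Cd3e was at 57.4 and 24.5 with saline and 75.7 and 95.5 with UAG. Cd8a was at 20.1 and 39.2 with saline and 57.4 and 84.7 with UAG, and its other 2 probe sets had log2 differences of -0.06 and 0.06. Nkg7, of cytotoxic cells, was at 38.7 and 38.2 with saline and 70.3 and 61.6 with UAG. The negative ones were Gzma, a granzyme, at 65.0 and 56.1 with saline and 93.5 and 38.3 with UAG, and Ms4a1 of B cells, at 64.1 and 45.1 with saline and 34.4 and 56.6 with UAG, and both overlap between groups. The summed lymphocyte level was higher on the arrays where Ccl4 was higher, and its part in that difference was not tested. Neutrophil markers were dim, with 4 of the 9 on the array at a mean of at least 30, and summed to 362 and 479 with saline and 385 and 335 with UAG. Neutrophils also make Lcn2, and their part in its difference was not tested. Krt19 of bile ducts, Adipoq of adipocytes and Acta1 of muscle were under 30 on every array, while Ckm, a muscle enzyme, was at 139 and 21.9 with saline and 10.5 and 4.86 with UAG, with a signal on saline replicate 1.

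The liver differences were set beside those of WAT and of the vastus lateralis muscle, each with 2 saline and 2 UAG arrays in the same series, in a limma fit to all 12 arrays. The UAG effect differed between liver and WAT for 3 of 26530 probe sets at an adjusted p under 0.05 (0.0113%), and between liver and muscle for 0 (0%), where the smallest adjusted p was 0.579. At an unadjusted p under 0.05 limma had 1236 and 831, each again a smaller share of the probe sets than 0.05. None of the 3 probe sets, of Fgf13, Peg3 and Tnnt2, reached 30 on a UAG liver array, so no liver difference named above was shown to be particular to liver. Of the 38 genes higher in liver, 16 had a positive and 13 a negative log2 difference in WAT, and 20 and 12 in muscle. Of the 28 lower in liver, 13 were negative and 11 positive in WAT, and 12 and 12 in muscle. The rest had a difference of 0, which values under 30 on every array of a tissue give.

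Tmem267 and Erdr1 had differences of like size in each tissue, -1.52 and -1.36 in liver, -1.64 and -1.33 in WAT and -1.24 and -1.23 in muscle. Cebpd was at 1.31, 1.17 and 1.28 in the same order. Mt2 was at 1.39, 0.67 and 0.26. The study's methods describe fat, muscle and liver of the same groups of mice, so the tissues may share animals. The fit treats their arrays as independent. A fixed difference between the mice cannot then be told apart from a treatment effect shared by the tissues. Noct was at 1.09 in liver, -0.27 in WAT and 0.10 in muscle, and limma gave the difference between liver and WAT an adjusted p of 0.424. For Nup62 that adjusted p was 0.207, with log2 differences of 1.10, -0.25 and 0.08. Lcn2 was at 0.89 in liver and -1.45 in WAT (limma adjusted p of the difference 0.907), and Saa3 at 0.92, -0.58 and -0.45. Of the 10 genes 2-fold and apart in liver that lay farthest from the mean of the other tissues, Nat8, Sema3f, Ccl4 and Saa3 among them, none passed in either comparison.

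**Figure D4:**
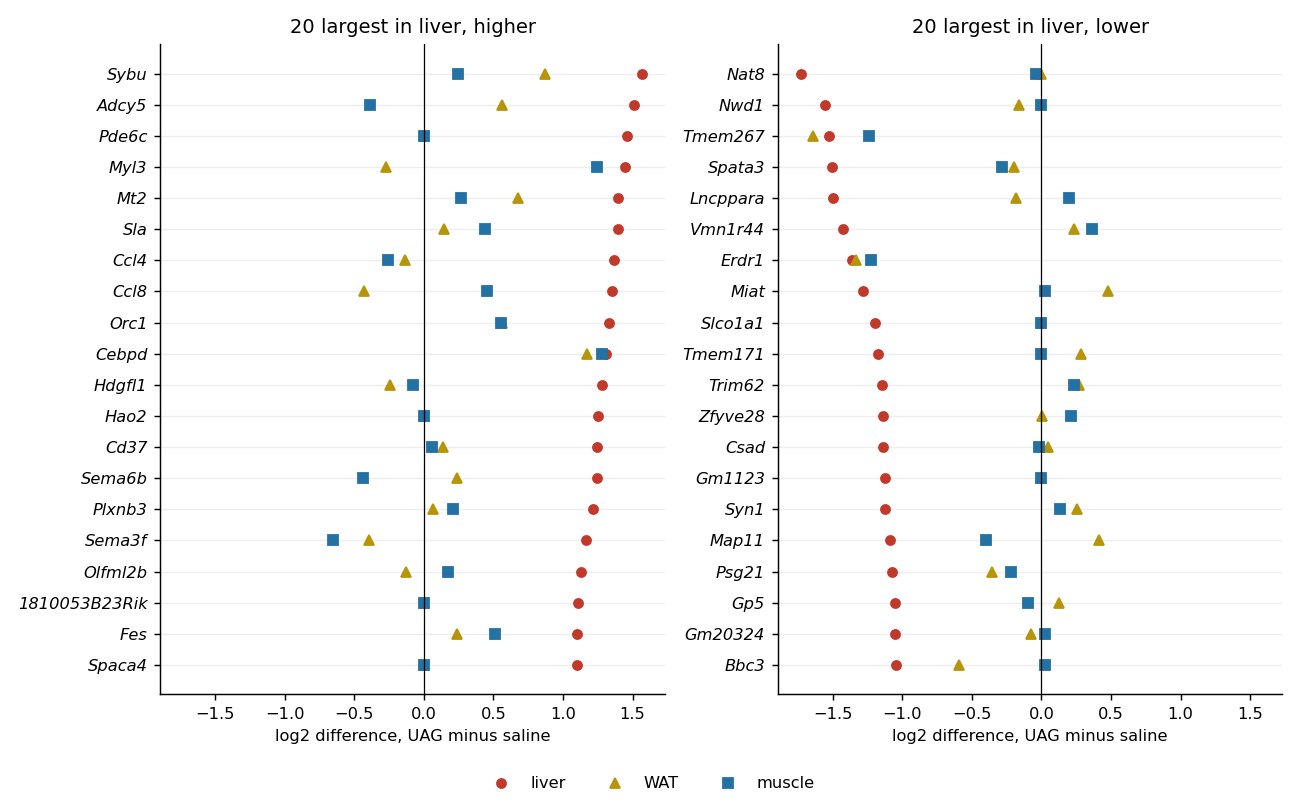
Log2 difference, UAG minus saline after the floor of 30, of the 20 genes with the largest positive (left) and negative (right) liver difference among those 2-fold with groups apart, in liver (red circles), WAT (yellow triangles) and muscle (blue squares). Cebpd, Tmem267 and Erdr1 have points of all 3 tissues on the same side and close together, while most other genes lie near 0 in WAT and muscle. A gene under 30 on every array of a tissue is drawn at 0 there.

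Of the genes the study drew or measured for liver, 21 were measured here, and the study chose some of them on these arrays, so their directions are no independent evidence. Among them 16 had a positive log2 difference, and 7 were higher and 3 lower at an unadjusted p under 0.05. Pde6c, a phosphodiesterase of cone cells, was at 29.1 and 90.5 with saline and 148 and 139 with UAG. Nox4, an NADPH oxidase, was at 349.7 and 393 with saline and 316 and 246 with UAG. Slc15a2, a peptide transporter, was at 20.1 and 26.4 with saline and 46.0 and 82.9 with UAG. A second Slc15a2 probe set was at 30.7 and 41.5 with saline and 21.3 and 34.5 with UAG. Msx1, a homeobox factor, was lower, at 68.3 and 69.1 with saline and 38.4 and 13.3 with UAG. Camk2b, a calcium-dependent kinase, was at 54.3 and 45.6 with saline and 97.0 and 64.3 with UAG. Stat3, the factor downstream of interleukin 6, was at 1005 and 1174 with saline and 1351 and 1006 with UAG. Ppargc1a, a coactivator of gluconeogenesis and mitochondrial genes, was at 181 and 214 with saline and 208 and 219.7 with UAG. Both overlap between groups. The study also measured genes by quantitative PCR in a separate experiment on more mice. In liver it reports, among others, Lcn2, Nox4, Pde6c and G0s2 higher and Saa1 lower after UAG. On these arrays Lcn2, Pde6c and G0s2 were higher too, but Nox4 was lower and Saa1 higher. The study reports Cebpd lower in WAT and muscle and tending higher in liver, while here Cebpd was higher in each tissue.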

How the data were processed

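RNA of liver, WAT and muscle was hybridised to Affymetrix Mouse Genome 430 2.0 arrays, 12 in all, 1 colour and 1 sample each. The deposited values are log2 normalized intensities; MAS5 stands in the submitters' processing notes (version not given in the sources used here), and the authors' methods state quantile normalization in R and a threshold of 30; setting lower values to 30 was the choice made here. Base 2 was taken from the values, since a natural log would put the brightest probe sets beyond the scanner's range. Groups came from the sample titles. The authors' own fold changes were not used.

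Values were returned to intensity and the 64 control probe sets left out. Symbols came from the platform annotation, updated through gene identifiers: 34945 probe sets named 1 gene, 932 several and 9160 none. limma 3.58.1 (R 4.3.3; lmFit and eBayes with an intensity trend, Benjamini-Hochberg adjustment) was fitted to the 4 liver arrays over probe sets with a mean of at least 30, and to 12 arrays for differences between tissues; the script was tested on simulated data. It has 2 residual degrees of freedom in liver, and an exact permutation test of 2 against 2 arrays cannot go below p = 0.333. The number of arrays limits the precision, and depth has no meaning for arrays. The named genes were every limma call, the 20 largest differences in each direction among genes 2-fold and apart, genes the study measured or drew for liver, members of lists that were 2-fold and apart or among the 4 largest of the rest, defining cell type markers, and the 10 with the largest difference from the other tissues; well-known members of a list were given besides. All 47 lists, the members and the rule were chosen with earlier results of these data known. Alternatives were other floors, filters and normalizations, geometric means, all probe sets of a gene averaged, limma without the trend or on 12 arrays, a replicate block, and each array left out. Figures were drawn with matplotlib 3.10.9.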

Additional observations from a re-analysis of the deposited data

Results flagged for a closer look

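Limma's test of the difference put the UAG effect in liver apart from that in WAT for 1 probe set each of Fgf13, Peg3 and Tnnt2, none of which reached 30 on a UAG liver array. With values under 30 set to 30, with the replicate number as a block, or without UAG replicate 2, there were 0 such differences (smallest limma adjusted p 0.0947, 0.247 and 0.113), so the sizes below rest on liver values under the threshold. For Fgf13, a regulator of sodium channels, the liver effect minus the WAT effect was -2.90 on the log2 scale with a standard error of 0.29 (limma adjusted p = 0.0228). Its liver values were 6.40 and 5.34 with saline and 2.53 and 2.48 with UAG, and its WAT values 390.5 and 314 with saline and 1262 and 995 with UAG. For Peg3, an imprinted zinc finger gene, the liver effect minus the WAT effect was -3.31 on the log2 scale with a standard error of 0.37 (limma adjusted p = 0.0313). Its liver values were 32.3 and 43.1 with saline and 10.4 and 8.94 with UAG, and its WAT values 66.8 and 69.1 with saline and 190.4 and 161 with UAG. The brightest liver probe set of Peg3 is another one, at 95.0 and 93.9 with saline and 65.2 and 73.2 with UAG in liver. For Tnnt2, cardiac troponin T, the liver effect minus the WAT effect was 4.23 on the log2 scale with a standard error of 0.51 (limma adjusted p = 0.047). Its liver values were 13.5 and 11.5 with saline and 21.8 and 28.7 with UAG, and its WAT values 179.7 and 129 with saline and 14.0 and 19.0 with UAG.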

How the results depend on the processing

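The counts of 2-fold differences depend on the floor. With a floor of 100 there were 14 probe sets higher, 13 lower and 22 of either kind with groups apart, and with no floor 2498, 2650 and 3795. With no floor and probe sets of a mean under 30 left out there were 305, 297 and 523. With 1 array left out the counts ran from 186 to 468 higher, from 137 to 344 lower and from 354 to 798 apart, each highest without saline replicate 2. After quantile normalization of the 4 arrays 172 of the 174 probe sets that were 2-fold and apart were shared, and after scaling to the 75th percentile 173. limma made 0 calls among probe sets of a mean of at least 100, 0 without the intensity trend and 5 when the 12 arrays of the series were fitted together. For 1455869_at the log2 difference stayed 2.65, with an adjusted p of 0.0684, 0.9996 and 0.233 under these 3 settings. With 1 array left out limma made 1 to 82 calls, and the log2 difference of this probe set ran from 2.29 to 3.005, each time past the threshold; the lone array of a group is then assumed to vary like those of the other group. Between liver and WAT there were 0 differences with values under 30 set to 30 and 0 to 26 with 1 array left out, and between liver and muscle 0 to 6. The replicate numbers were not shown to pair the samples: differences between replicates 1 and 2 correlated at -0.0377 between groups. With the replicate number as a block limma made 7 calls in liver, Slco1a1, Tmem267 and Erdr1 among them, and 0 between liver and WAT. Among the 213 named genes, a reversal was counted only for those 2-fold with groups apart, and there was none. Leaving out 1 array or adding the replicate block cannot turn the sign of such a gene, so those settings could show no reversal. Without saline replicate 1, the array whose loss changed the most signs, 22 of the 213 changed sign. Of 47 list medians 6 to 12 changed sign with 1 array left out, 2 with quantile normalization and 4 with all probe sets of a gene averaged. Causes were not tested. Low signal limits the rest: most 2-fold differences lie near the floor, where ratios are bounds set by it.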
